A study of Mus musculus with 6 samples.

Results

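The genes described here are 9 genes of myelin and of the oligodendrocytes that make it, Mbp, Mobp, Mog, Mag, Cnp, Cldn11, Mal, Ugt8a and Opalin. Every probeset whose annotation gives one of these symbols and no other was taken, which yielded 25 of the 45101 probesets on the array. Of these, 23 were among the 31075 probesets kept after the dimmest were left out, and each of the 9 genes kept at least 1. The measurements came from the hippocampus of 3 transgenic (Tg) mice, which carry extra Glud1 (glutamate dehydrogenase) driven by the neuron-specific enolase promoter and so are meant to overexpress it in neurons and not in glia, and of 3 wild type (wt) mice. All were untreated males of a C57BL/6 background aged 9 months, and RNA from each homogenized hippocampus was hybridised to 1 Affymetrix array of the mouse genome. The arrays are called Tg 1 to Tg 3 and wt 1 to wt 3 after the mouse numbers in the labels, and each value is a linear MAS5 signal that the authors had scaled to a common trimmed mean. The study uses the comparison of Tg with wt mice to address the response of hippocampal cells to a lasting excess of glutamate release. It adds that overexpressed GLUD1 may also alter metabolism inside cells, and the comparison cannot tell these apart. The spread between mice of 1 genotype is described beside the comparison.

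Oligodendrocytes wrap axons in many layers of their own membrane. Mbp and Mobp hold the cytoplasmic faces of these layers together, Mag and Mog sit on the inner and outer surfaces of the sheath, and Cldn11 forms the tight junctions along its spiral. Ugt8a makes galactosylceramide, the lipid most typical of myelin, and the factors SOX10 and MYRF switch on many of these genes as the cell matures. In a homogenate of the hippocampus the transcripts come from the white matter tracts at its edges, the fimbria and alveus, and from oligodendrocytes scattered among neurons. In bulk tissue, fewer oligodendrocytes and less RNA in each oligodendrocyte cannot be told apart.

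On the arrays as a whole, the median signal of the kept probesets lay between 309.7 and 318.9 in Tg mice and between 297.3 and 305.4 in wt mice. The 3'/5' ratio of the Actb control probesets was 1.64 to 1.69 in Tg mice and 1.70 to 1.95 in wt mice. Glud1 had signals of 5115.6 to 5595.7 in Tg mice and 5647.3 to 6383.3 in wt mice at 1448253_at, and of 4639.5 to 5393.8 in Tg mice and 5031.1 to 5729.2 in wt mice at 1416209_at, so neither probeset was higher in Tg mice. Whether either reads the transgene was not given in the sources used here, so they do not check the labels. All 10 marker genes listed for dentate gyrus granule cells and 5 of 6 listed for CA1 pyramidal cells were among the kept genes.

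The third array of each genotype was the lowest of its genotype for all 9 genes. This was seen at each gene's brightest probeset, the one with the highest mean level among those annotated to the gene alone. Over all 13853 genes represented in that way, Tg 3 was the lowest Tg array for 33.9%, wt 3 was the lowest wt array for 32.8%, and both held for 1624 genes, or 11.7%. On the log2 scale, the mean over the 9 genes was lower by 0.52 on Tg 3 than on the mean of Tg 1 and Tg 2, a ratio of 0.695. On wt 3 it was lower by 0.30 than on the mean of wt 1 and wt 2, a ratio of 0.811. The labels do not say whether a mouse number links a Tg mouse with a wt mouse. The study calls the wt mice littermates but does not say which mice share a litter. Whether Tg 3 and wt 3 share more than a number is therefore not known. With quantile normalization, wt 3 remained lowest for 8 of the 9 genes and Tg 3 for all 9, and both remained lowest for all 9 when arrays were centred on their medians.

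The start regions of 4 members are shown, whose windows lie at the annotated start and hold the letters of motifs bound by the factors named above. They are RefSeq sequence of the GRCm38.p6 build and run from 250 bases before to 50 after the start, 5′ to 3′ on the gene's strand. Capitals mark matches on either strand to CTGGCAC or CTGGTAC, taken for MYRF, or to ACAAAG or ACAATG, taken for SOX factors. Mog lies on the minus strand at chr17:37023349-37023648, Mag on the minus strand at chr7:30914873-30915172, Mobp on the plus strand at chr9:120149492-120149791 and Opalin on the minus strand at chr19:41077064-41077363.
Mog: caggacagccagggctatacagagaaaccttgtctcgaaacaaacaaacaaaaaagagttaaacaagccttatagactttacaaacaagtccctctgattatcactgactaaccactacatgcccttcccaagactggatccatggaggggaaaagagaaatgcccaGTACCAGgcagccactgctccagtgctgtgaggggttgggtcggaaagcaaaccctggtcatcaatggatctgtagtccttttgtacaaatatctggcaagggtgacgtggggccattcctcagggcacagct
Mag: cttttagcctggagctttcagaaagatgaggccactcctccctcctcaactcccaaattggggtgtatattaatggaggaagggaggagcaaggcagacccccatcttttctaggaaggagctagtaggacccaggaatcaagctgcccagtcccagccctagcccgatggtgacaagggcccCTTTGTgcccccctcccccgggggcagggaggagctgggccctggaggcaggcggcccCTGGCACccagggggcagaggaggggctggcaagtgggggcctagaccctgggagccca
Mobp: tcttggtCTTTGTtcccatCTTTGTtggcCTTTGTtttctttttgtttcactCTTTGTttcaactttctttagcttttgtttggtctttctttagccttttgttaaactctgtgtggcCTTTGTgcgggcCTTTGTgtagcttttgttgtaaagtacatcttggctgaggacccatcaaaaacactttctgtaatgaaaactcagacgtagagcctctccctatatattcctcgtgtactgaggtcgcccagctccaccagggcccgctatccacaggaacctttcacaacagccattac
Opalin: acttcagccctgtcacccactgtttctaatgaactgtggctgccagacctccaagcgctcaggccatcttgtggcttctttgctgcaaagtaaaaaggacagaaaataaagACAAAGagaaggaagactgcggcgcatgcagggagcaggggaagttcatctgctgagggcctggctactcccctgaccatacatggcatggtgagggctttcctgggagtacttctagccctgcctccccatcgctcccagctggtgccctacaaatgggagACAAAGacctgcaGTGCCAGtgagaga
Windows were read for 8 of the 9 members, and of the 3 windows of Mag the one at the annotated start is shown. The windows of Cnp and Ugt8a do not lie at the annotated start of the gene, and they are counted but not shown. The MYRF letters stood in 4 of them, Mog, Mag, Cnp and Opalin, against 7.1% of 32851 windows of the same length. The SOX letters stood in 4, Mag, Mobp, Cnp and Opalin, against 28.6% of windows. The Mobp window held 6 SOX matches, and 0.767% of windows held 3 or more. The motifs were chosen after the sequences had been seen, the motifs do not overlap each other, and a match is a description of letters and not a site. Whether the motifs bear on the members' levels across mice was not tested.

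Mbp, the basic protein that compacts the sheath, is read by 8 probesets, all of them kept. At the brightest, 1433532_a_at, the signals of Tg 1, Tg 2 and Tg 3 were 42554.1, 39530.3 and 36679.2, and those of wt 1, wt 2 and wt 3 were 37412.4, 37587.7 and 35906.9. The third mouse was lowest in each genotype, the other 2 Tg mice were above every wt mouse, and the genotypes overlapped through Tg 3. This was the narrowest drop among the 9 genes, with Tg 3 at 89.4% of the mean of Tg 1 and Tg 2 and wt 3 at 95.8% of the mean of wt 1 and wt 2. The log2 fold change was 0.096 ± 0.071 (SE, n = 3 each), with an adjusted p of 0.691 in limma.

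The Mbp probesets did not move alike. At 1425263_a_at, Tg 1, Tg 2 and Tg 3 had 887.0, 1060.1 and 1099.1, and wt 1, wt 2 and wt 3 had 799.2, 434.1 and 753.7. Every Tg mouse was above every wt mouse, and this was the sole kept member probeset with Tg 3 highest. The log2 fold change was 0.65 ± 0.20 (SE), with an unadjusted p of 0.0076 and an adjusted p of 0.325, and it was 0.37 without wt 2, the lowest wt mouse. The study named Mbp among the genes up-regulated in Tg mice. It listed this probeset on these same arrays, so the direction seen here is not independent evidence. At the other 6, the log2 fold change lay between -0.17 and 0.18. It was below 0 at the 3 whose names end in x_at, which can also bind transcripts of other genes, and it was below 0 at all 4 member probesets of that kind, against 13 of 19 other member probesets above 0. Over all kept probesets, 41.8% of the x_at kind and 54.0% of the rest were higher in Tg mice. This split was seen after the values were known.

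Mobp, the second small basic protein of compact myelin, kept 4 of 5 probesets. At 1433785_at, its brightest, the signals were 13647.5, 15362.9 and 8998.6 in Tg 1 to Tg 3 and 14795.0, 13834.8 and 11979.4 in wt 1 to wt 3. Tg 3 stood below every other mouse, at 62.0% of the mean of Tg 1 and Tg 2, and wt 3 was at 83.7% of the mean of wt 1 and wt 2. The log2 fold change there was -0.13 ± 0.16 (SE), and the genotypes overlapped. At 1421010_at the order between genotypes was another: Tg mice had 7957.1, 8468.6 and 6650.9, and wt mice had 6247.3, 6105.9 and 5482.8. Even Tg 3 was above every wt mouse, with a log2 fold change of 0.37 ± 0.099 (SE), an unadjusted p of 0.0030 and an adjusted p of 0.251. The remaining pair, 1436263_at and 1450088_a_at, were at 0.098 and 0.31 with overlap, and Tg 3 and wt 3 were lowest at each of the 4, wt 3 at the last by less than 1 signal unit. The probeset left out, 1441308_at, had signals from 8.2 to 13.9 in Tg mice and from 5.2 to 10.2 in wt mice.

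Mog, the immunoglobulin protein of the outermost membrane, had the deepest drop on Tg 3. At its probeset, 1448768_at, the signals were 858.9, 789.6 and 346.3 in Tg 1 to Tg 3 and 641.6, 736.7 and 586.5 in wt 1 to wt 3. Tg 1 and Tg 2 were above all wt mice and Tg 3 was below all of them. Tg 3 was at 42.0% of the mean of Tg 1 and Tg 2, and wt 3 at 85.1% of the mean of wt 1 and wt 2. The SD on the log2 scale was 0.70 among Tg mice and 0.16 among wt mice, the means were 665 ± 278 in Tg mice and 655 ± 76.0 in wt mice (SD, n = 3 each), and the log2 fold change was -0.075 ± 0.27 (SE). Without Tg 3 it was 0.33, with an adjusted p of 0.755.

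Mag, the lectin that faces the axon, is read by 1460219_at. The signals were 1918.9, 2642.2 and 1733.0 in Tg mice and 2244.2, 2227.2 and 1751.2 in wt mice. The third mice were close to each other and lowest, at 76.0% of the mean of the other Tg mice and 78.3% of the mean of the other wt mice. The log2 fold change was 0.0019 ± 0.15 (SE), the smallest of the 9 genes.

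Cnp, a cyclic nucleotide phosphodiesterase of the cytoplasm-filled parts of the sheath, was at its brightest probeset the exception in the size of the drop. At 1437341_x_at, its brightest of 3 probesets, Tg mice had 13605.8, 14903.8 and 11610.6 and wt mice had 18489.0, 17156.4 and 11217.1. wt 3 was here the lowest of all 6 mice, at 62.9% of the mean of wt 1 and wt 2, whereas Tg 3 was at 81.5% of the mean of Tg 1 and Tg 2. The SD on the log2 scale was 0.18 among Tg mice and 0.39 among wt mice, and the log2 fold change was -0.20 ± 0.16 (SE). At 1449296_a_at, Tg mice had 2358.7, 2431.1 and 1807.3 and wt mice had 1826.9, 1500.9 and 1671.5, so that Tg 3 fell just below wt 1. The log2 fold change at that probeset was 0.39 ± 0.13 (SE), with an unadjusted p of 0.0099 and an adjusted p of 0.344. At 1418980_a_at, where Tg 3 was at 59.0% of the other Tg mice and wt 3 at 77.3% of the other wt mice, it was -0.021.

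Cldn11, the claudin of the sheath's tight junctions, had 1652.4, 1609.2 and 1229.5 in Tg mice and 1620.6, 1754.3 and 1518.2 in wt mice at 1416003_at. Tg 3 was the lowest of the 6, at 75.4% of the other Tg mice, and wt 3 was at 90.0% of the other wt mice. The log2 fold change was -0.13 ± 0.13 (SE), and without Tg 3 it was 0.0021.

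Mal, a raft proteolipid that sorts membrane proteins, had 6717.4, 6384.6 and 4456.9 in Tg mice and 6351.0, 5563.2 and 4542.7 in wt mice at 1417275_at. The third mice of both genotypes stood apart below the other 4. They were at 68.0% of the other Tg mice and 76.3% of the other wt mice, and the log2 fold change was 0.084 ± 0.15 (SE). At its second probeset, 1432558_a_at, the third mice were again lowest, with a log2 fold change of 0.19.

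Ugt8a, the enzyme of galactosylceramide synthesis, had 1818.9, 2166.0 and 1355.6 in Tg mice and 2161.2, 1908.3 and 1646.9 in wt mice at 1419063_at. The third mice were again the lowest 2 of the 6, at 68.0% of the other Tg mice and 80.9% of the other wt mice, and the log2 fold change was -0.11 ± 0.16 (SE). At 1419064_a_at, where the lowest wt mouse was wt 2, it was 0.17.

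Opalin, a membrane protein of oligodendrocytes, had 1048.5, 1357.8 and 843.9 in Tg mice and 1175.9, 1270.9 and 968.0 in wt mice at 1435854_at. The third mice were the lowest 2 of the 6 here too, at 70.1% of the other Tg mice and 79.1% of the other wt mice, and the log2 fold change was -0.088 ± 0.17 (SE). Its other probeset, 1447487_at, was dim, at 27.9 to 57.8 in Tg mice and 8.1 to 42.3 in wt mice, and was left out.

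**Figure D1:**
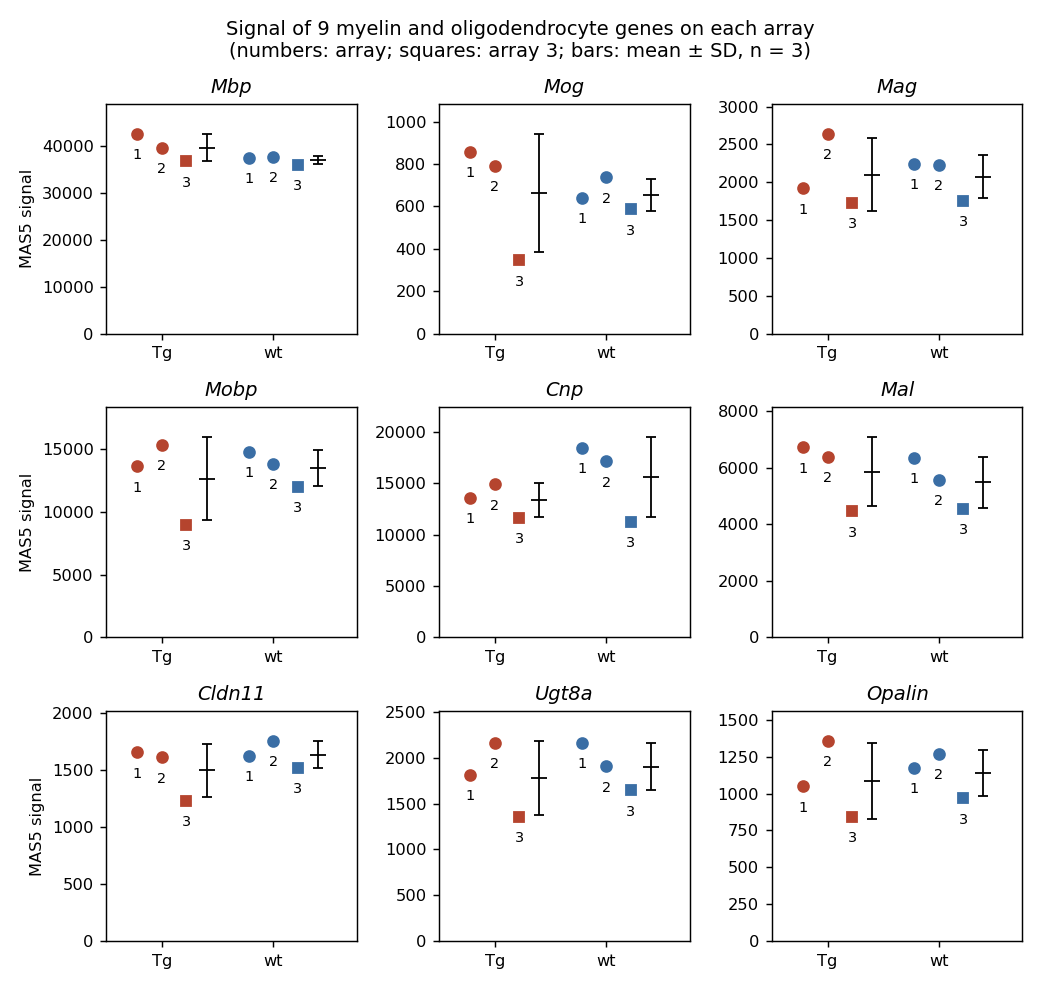
MAS5 signal of each of the 9 genes at its brightest probeset in the 3 Tg and the 3 wt mice, each point 1 array and the bars the mean ± SD (n = 3). In every panel the third array of each genotype is the lowest of its genotype, from 89.4% of the other Tg arrays for Mbp down to 42.0% for Mog, and from 95.8% of the other wt arrays for Mbp down to 62.9% for Cnp.

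By probeset, the order of the arrays was nearly the same. Tg 3 was the lowest Tg array at 22 of the 23 kept probesets, against 31.7% of all kept probesets, and wt 3 was the lowest wt array at 19 of the 23, against 30.6%. Both held at 19 of 23, against 10.3% of all kept probesets. The exception for Tg 3 was 1425263_a_at of Mbp, and the exceptions for wt 3 were that probeset, 1425264_s_at of Mbp, 1449296_a_at of Cnp and 1419064_a_at of Ugt8a. After quantile normalization, Tg 3 was lowest at 22 of the 23, wt 3 at 16 and both at 16. As several probesets read 1 transcript, the 23 are not independent of each other. Over the 9 genes, the median of these percentages was 70.1% for Tg 3 against the mean of the other Tg arrays, and 80.9% for wt 3 against the mean of the other wt arrays.

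**Figure D2:**
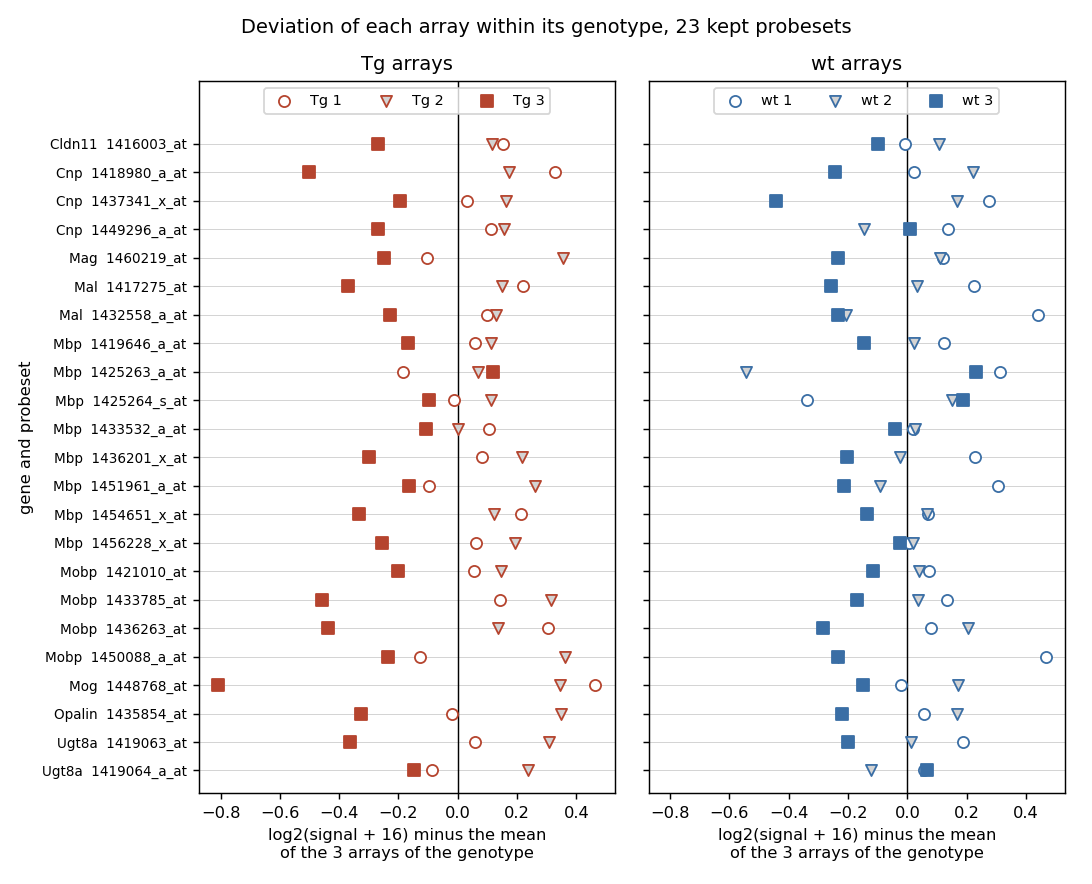
Deviation of each array from the mean of its own genotype's 3 arrays, in log2(signal + 16), at the 23 kept member probesets, with Tg arrays in the left panel and wt arrays in the right. The markers of Tg 3 lie lowest of the Tg arrays at 22 of 23 probesets, and those of wt 3 lowest of the wt arrays at 19 of 23.

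With all 6 arrays, the SDs of most of these genes were larger among Tg mice than among wt mice. The median SD on the log2 scale was 0.32 among Tg mice and 0.19 among wt mice, against 0.17 among Tg mice and 0.18 among wt mice over all genes. Bright probesets vary less, and over the 6163 genes at least as bright as the dimmest member the medians were 0.11 among Tg mice and 0.12 among wt mice. The SD was larger among Tg mice for 8 of the 9 genes, all but Cnp, and for 17 of 23 probesets, against 49.0% of all genes and 47.0% of all kept probesets. Cnp was an exception at its brightest probeset only. Its SDs were 0.44 among Tg mice and 0.23 among wt mice at 1418980_a_at, and 0.23 among Tg mice and 0.14 among wt mice at 1449296_a_at. The mean level of the 9 genes spanned 0.58 on the log2 scale over the Tg mice and 0.31 over the wt mice. Without Tg 3, the span over Tg 1 and Tg 2 was 0.12, and without wt 3, that over wt 1 and wt 2 was 0.018. The direction of the SDs depended on which arrays were left out. With Tg 3 left out, the median SD was 0.093 over Tg 1 and Tg 2 and 0.19 over the wt mice. The SD was then larger among Tg mice for 3 of the 9 genes, against 41.4% of all genes. That comparison keeps wt 3, the lowest wt array for all 9 genes. With wt 3 left out instead, the SD was larger among Tg mice for 9 of the 9, against 53.4% of all genes. When Tg 3 and wt 3 were left out together, the median SD was 0.093 among Tg mice and 0.078 among wt mice. It was larger among Tg mice for 6 of the 9, against 46.6% of all genes. The difference in spread between the genotypes was not tested.

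**Figure D3:**
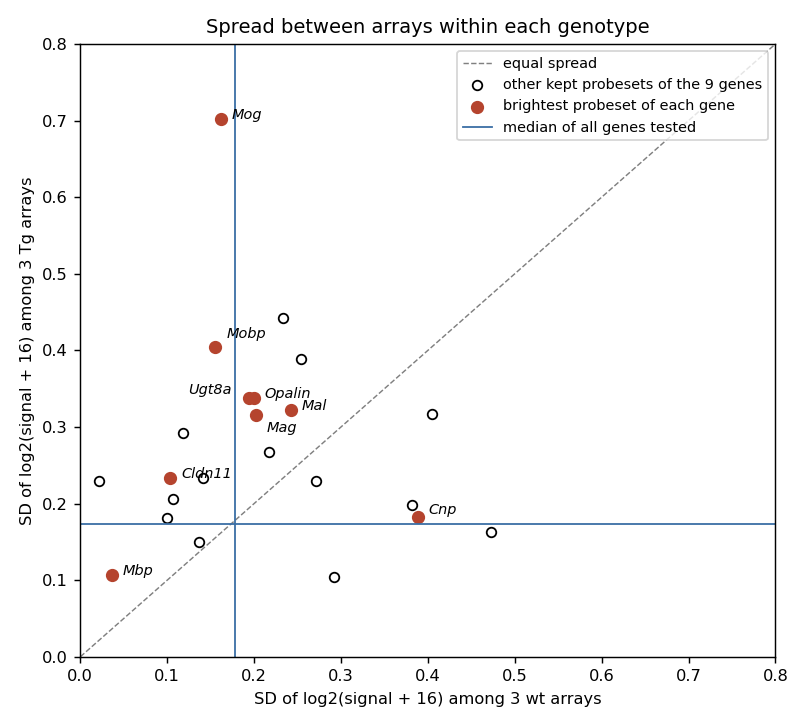
SD over the 3 Tg arrays (vertical axis) against the SD over the 3 wt arrays (horizontal axis), in log2(signal + 16), with the 9 genes named at their brightest probesets, their other kept probesets as open circles and lines at the medians of all genes. Of the 9, all but Cnp lie above the line of equal SD, and Mog is farthest from it at 0.70 among Tg arrays and 0.16 among wt arrays.

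Between genotypes, none of the 23 probesets passed the test in limma at an adjusted p under 0.05, and the share called over all kept probesets was 0%. At an unadjusted p under 0.05 there were 3 of 23, the probesets of Mbp, Mobp and Cnp given above, all higher in Tg mice and none of them the brightest of its gene. Over all kept probesets 9.69% passed at that level, 5.91% higher and 3.78% lower in Tg mice. With Cyber-T, one of the study's own tests, the same 3 passed at an unadjusted p under 0.05, against 10.4% of all kept probesets, none of the 23 was called after adjustment, against 0.209%, and 2 of 23, those of Mbp and Cnp, passed at an unadjusted p under 0.05 and a 1.3-fold difference, against 7.54%. These are the study's limits on p and fold without its limit on the false discovery rate, which was not applied. Without overlap between genotypes were 2 of 23, both with every Tg mouse above every wt mouse, against 15.3% of all kept probesets, 8.58% with Tg mice above and 6.67% with Tg mice below. As shares of the 23 these counts are 13.0% at an unadjusted p under 0.05 in limma, 8.70% at those limits on p and fold in Cyber-T and 8.70% without overlap. Of the 9 genes at their brightest probesets, 3 were higher in Tg mice, Mbp, Mal and Mag, with a median log2 fold change of -0.088, against 44.0% of all genes and a median of -0.031. By probeset, 13 of 23 were higher in Tg mice, against 53.2% of all kept probesets.

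The direction of the comparison turned on the third mice. Without Tg 3, 8 of the 9 genes were higher in Tg mice, all but Cnp, with a median log2 fold change of 0.10, against 45.5% of all genes, and 20 of 23 probesets were higher, against 53.6% of all kept probesets. Without wt 3, 1 of the 9 was higher and the median was -0.18, against 43.0% of all genes. Without both, 5 of the 9 were higher and the median was 0.010, against 44.8% of all genes. No member passed the test in any of these, and the smallest adjusted p of a member without Tg 3 was 0.397. When a gene was given the mean of all its probesets, 6 of the 9 were higher.

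**Figure D4:**
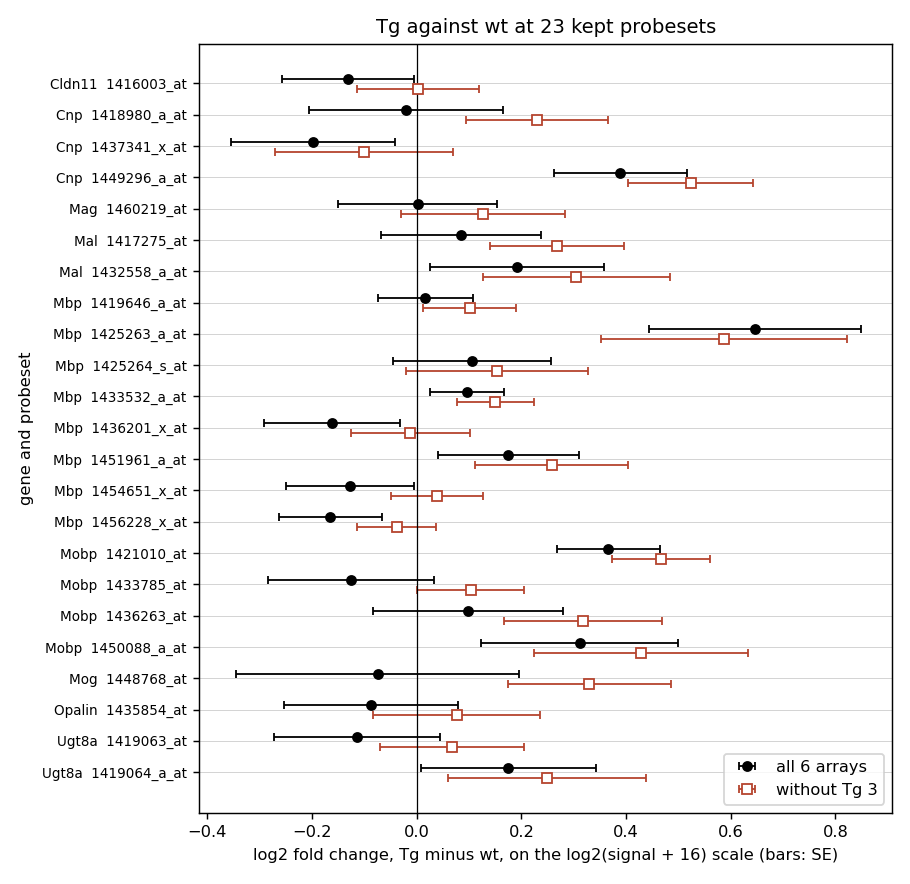
Log2 fold change of Tg over wt mice at each of the 23 kept member probesets, with all 6 arrays (filled circles) and without Tg 3 (open squares), bars being the SE. With all 6 arrays 13 of 23 lie above 0, and without Tg 3 20 of 23 do.

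Other oligodendrocyte genes were examined in 5 lists of 64 genes, of which 58 were measured. None passed the test between genotypes, 24 of 58 were higher in Tg mice, and the median log2 fold change was -0.069. At an unadjusted p under 0.05 there were 3 of 58, all higher in Tg mice, or 5.17%, against 7.81% of all genes in either direction and 2.86% higher in Tg mice. Myrf, the factor whose letters were searched above, had 1069.4, 1082.9 and 1229.0 in Tg mice and 1038.7, 725.3 and 584.9 in wt mice, without overlap and with Tg 3 highest, and its log2 fold change was 0.55 ± 0.18 (SE) with an adjusted p of 0.338. Adamts4, a secreted metalloproteinase, and Prr5l, a partner of the mTOR kinase, were at 0.53 and 0.48 with adjusted p values of 0.397 and 0.460.

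The third arrays were also lowest for most other genes of the finished sheath. Among 14 further myelin sheath proteins Tg 3 was lowest for 12 and wt 3 for 11, with median log2 differences from the other arrays of the genotype of -0.44 on Tg 3 and -0.26 on wt 3. Plekhb1 was at 74.9% of the other Tg mice and 86.2% of the other wt mice and the tetraspanin Tspan2 at 79.6% on Tg 3 and 73.3% on wt 3, while Omg, which neurons also express, was at 101% on Tg 3 and 78.5% on wt 3. Among 15 other genes of mature oligodendrocytes Tg 3 was lowest for 10 and wt 3 for 12, with medians of -0.34 on Tg 3 and -0.23 on wt 3. Carbonic anhydrase Car2 was at 77.8% on Tg 3 and 88.3% on wt 3 and Qdpr, which recycles biopterin, at 92.3% on Tg 3 and 86.6% on wt 3, whereas the lipocalin Apod was at 129% on Tg 3 and 105% on wt 3.

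Lipid enzymes, transcription factors and precursor genes gave mixed orders. Of 9 genes of myelin lipid metabolism Tg 3 was lowest for 5 and wt 3 for 6. Fa2h, which hydroxylates the fatty acids of myelin lipids, was at 65.2% on Tg 3 and 66.2% on wt 3, Gltp, a glycolipid carrier, at 94.3% on Tg 3 and 81.2% on wt 3, and the lysosomal sulfatase Arsa at 101% on Tg 3 and 106% on wt 3. Of 10 lineage transcription factors Tg 3 was lowest for 4 and wt 3 for 7, with Olig1 at 84.8% on Tg 3 and 84.2% on wt 3, St18 at 95.1% on Tg 3 and 94.4% on wt 3 and Myrf at 114% on Tg 3 and 66.3% on wt 3. Of 10 genes of precursors and newly formed oligodendrocytes Tg 3 was lowest for 5 and wt 3 for 2, with medians of -0.099 on Tg 3 and 0.051 on wt 3. Pdgfra, the growth factor receptor that marks precursors, was at 119% on Tg 3 and 121% on wt 3, the matrix protein Tnr at 109% on Tg 3 and 99.1% on wt 3, and Bcas1 at 75.5% on Tg 3 and 82.8% on wt 3. Whether the lists differ from each other was not tested.

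Markers of other cells gave these values on the same arrays. Of 9 choroid plexus genes Tg 3 was lowest for 9 and wt 3 for 7, with medians of -2.71 on Tg 3 and -0.21 on wt 3. Ttr, the thyroid hormone carrier of the choroid plexus, had 40079.7, 57637.7 and 3915.2 in Tg mice and 50822.4, 48740.4 and 44775.6 in wt mice. The summed signal of the choroid plexus list ran from 4856.3 to 70378.8 in Tg mice and from 49256.9 to 55970.0 in wt mice, and that of the 9 members from 67253.6 to 84746.4 in Tg mice and from 70116.9 to 84890.9 in wt mice. Tg 3 held the least of both among Tg mice, and wt 3 held the least of both among wt mice. Most of the choroid plexus sum on Tg 3 and on wt 3 was the signal of Ttr alone. Kl, the next brightest gene of that list, was at 21.3% on Tg 3 and 111% on wt 3. For Ttr, Tg 3 was at 8.01% of the other Tg mice and wt 3 at 89.9% of the other wt mice. Of 12 astrocyte genes Tg 3 was lowest for 5 and wt 3 for 2, of 11 microglial genes Tg 3 for 4 and wt 3 for 3, and of 11 endothelial and mural genes Tg 3 for 2 and wt 3 for 0. Of 10 dentate gyrus genes Tg 3 was lowest for 3 and wt 3 for 0, of 5 CA1 genes Tg 3 for 3 and wt 3 for 0, and of 7 CA2 and CA3 genes Tg 3 for 4 and wt 3 for 4. Of 7 subicular and cortical genes Tg 3 was lowest for 3 and wt 3 for 1, of 7 striatal genes Tg 3 for 3 and wt 3 for 3, and of 7 thalamic genes Tg 3 for 1 and wt 3 for 4. The part that the makeup of the dissected tissue had in the members' values was not tested. The 18S RNA control probeset was highest on Tg 3 among Tg mice and lowest on wt 3 among wt mice, at 1695.3, 975.5 and 3312.8 in Tg mice and 13960.1, 10375.2 and 2286.5 in wt mice.

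**Figure D5:**
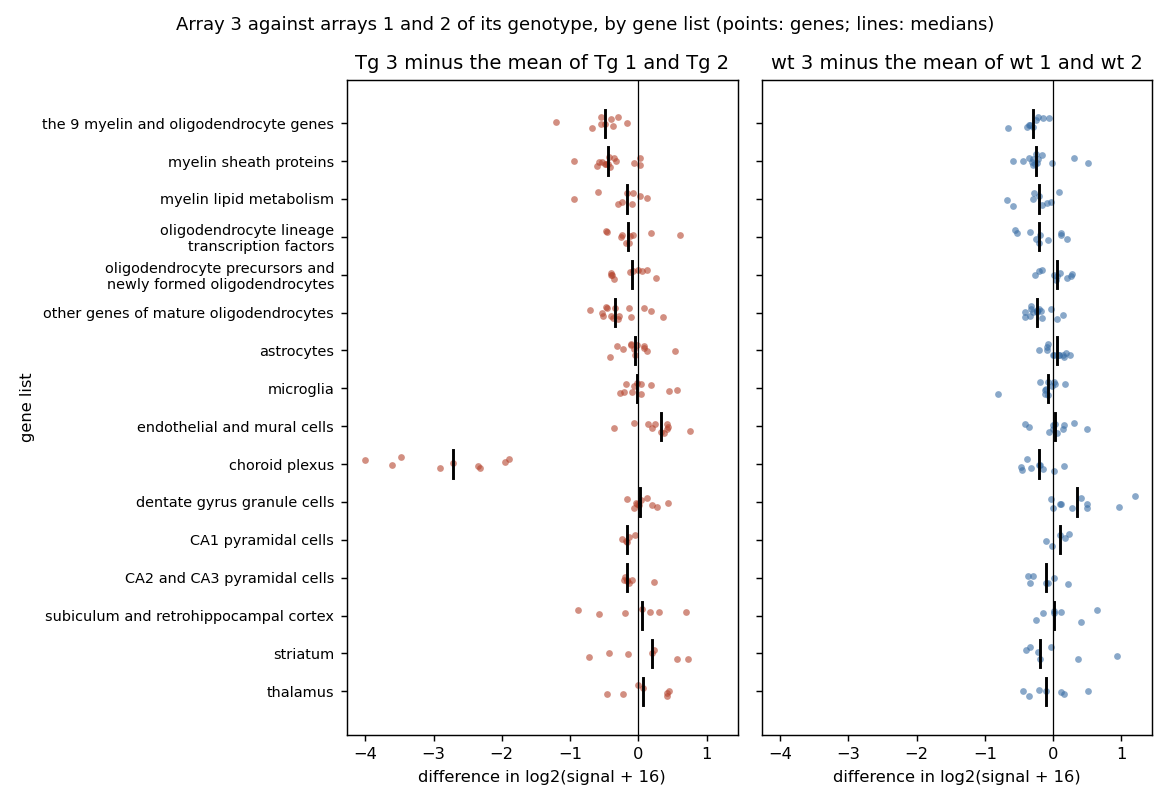
Log2 difference of the third array from the mean of the other 2 arrays of its genotype, for each gene of the member list, the other oligodendrocyte lists and the lists of other cells, with Tg in the left panel and wt in the right. The median is -0.49 on Tg 3 and -0.30 on wt 3 for the members, and -2.71 on Tg 3 and -0.21 on wt 3 for the choroid plexus list.

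The genes most like the 9 in pattern were sought among the 13844 others by the root mean square difference between a gene's deviations over the 6 arrays and the mean deviations of the members, which were 0.086, 0.20 and -0.38 on Tg 1 to Tg 3 and 0.14, 0.12 and -0.17 on wt 1 to wt 3. The 10 nearest lay between 0.052 and 0.061 from this pattern, against a median of 0.28 over all others. They were Mettl26, Golga3, Bcas1, Pcsk5, Cdc42ep5, Plekhb1, Gatm, Gamt, Stau1 and Trip11. Of these 10, 4 are on the other oligodendrocyte lists: Bcas1, Plekhb1 and the creatine-synthesis enzymes Gatm and Gamt. Gatm had 2279.7, 2444.3 and 1712.6 in Tg mice and 2338.4, 2399.8 and 2119.0 in wt mice, and Gamt had 332.0, 326.1 and 225.0 in Tg mice and 347.0, 319.2 and 280.7 in wt mice, the third mouse lowest each time. Of the 100 nearest genes, 12 were on those lists, against 0.419% of all other genes. All 58 measured genes of those lists had a median distance of 0.195. A gene with no deviation on any array would lie at 0.207. With 6 arrays, a near pattern describes these mice only.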

How the data were processed

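Total RNA of 1 hippocampus per mouse was labelled with biotin and hybridised to 6 arrays, 3 Tg and 3 wt. The deposited intensities are 1 signal per probeset, computed by the authors with MAS5 and scaled to a common trimmed mean on each array. The study itself used RMA values with SAM and Cyber-T. Detection calls and scanned images were not analysed here. Left out were 64 control probesets and, by mean log2 level, the dimmest 31% of the rest, which kept signals with a mean of at least 47.8. Values were taken as log2(signal + 16), so that fold changes of dim probesets are understated. Genotypes were compared by limma 3.58.1 (R 4.3.3; intensity trend, two-sided), with Benjamini-Hochberg adjustment over all 31075 kept probesets and an adjusted p under 0.05 as the threshold for a call. Cyber-T was run with a confidence of 10. An exact permutation test of 3 against 3 mice cannot go below p = 0.1, so none was used. The p-values test the difference in means between genotypes against the spread between these mice, with each variance drawn toward that of other probesets. They do not measure the spread itself, and the number of mice limits the precision.

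Genes were named from the platform annotation, and locations and sequences from RefSeq. The text names all members, the 3 genes of highest mean level in each other oligodendrocyte list and every gene there with an unadjusted p under 0.05, the 10 nearest in pattern, and in lists of other cells some of the 2 genes of highest mean level. The members and lists were chosen with earlier results of these data known. The scripts were tested on simulated data. Alternatives were another added constant, filter, scaling, variance model, test, replicate block and each array left out.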

Additional observations from a re-analysis of the deposited data

How the results depend on the processing

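No member probeset was called by limma with another added constant, filter, scaling or variance model, with any array left out or with Tg replicate 3 and wt replicate 3 both left out, the last chosen after seeing the data, nor by Cyber-T after adjustment, and 2 passed at an unadjusted p under 0.05 and a 1.3-fold difference in Cyber-T, against 7.54% of all kept probesets. Of 162 alternative fold changes of the 9 genes 146 kept the sign, and the 153 that have an adjusted p had values between 0.322 and 0.999. With 1 array left out, the member probesets at an unadjusted p under 0.05 numbered 3 to 6 (6 without wt replicate 1, where 11.3% of all kept probesets passed, against 6.76% to 9.90% without each other array), genes higher in Tg mice 1 (without wt replicate 3) to 8 (without Tg replicate 3), and their median log2 fold change -0.25 to 0.10. The median SD ranged over 0.093 to 0.43 among Tg arrays and 0.078 to 0.22 among wt arrays, and the span of the mean level over 0.12 to 0.58 among Tg arrays and 0.018 to 0.31 among wt arrays, the low values without Tg replicate 3 and without wt replicate 3. Genes higher in Tg mice numbered 6 with the mean of all probesets, which turned their median to 0.030, and 5 without both of these. Over all other lists together, 0 genes were called as reported, 0 to 2 with 1 array left out (2 without Tg replicate 2), 4 with Cyber-T after adjustment and 22 of 142 with Cyber-T at the same unadjusted p and fold (15.5%, against 4.61% of all genes), and the cause was not tested. With the replicate block, 3 member probesets had an unadjusted p under 0.05 in limma and 0 were called. Deviations of same-numbered arrays correlated at -0.016, 0.0078 and 0.033 over all kept probesets. A link that touches few genes would not show there, so whether the numbers pair the mice is not known. Only 3 arrays per genotype limit what could be called.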
